A study of Mus musculus with 4 samples.

Results

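Pluripotency genes were followed in F9 cells, a mouse embryonal carcinoma line, with and without knockdown of Phf19. The 34 genes were listed by name: the core factors, the transcription factors of naive pluripotency, and marker genes of embryonic stem cells. A gene was measured through every probe set whose platform annotation gave exactly that symbol, which found 66 probe sets for 33 genes of the 18193 genes on the array with a probe set of their own. Spp1, which encodes osteopontin, was not analysed here.

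Per the labels, F9 cells from ATCC were infected with pLKO.1 lentivirus and selected with puromycin as stable cells, so both groups carry a lentiviral vector. The shPhf19 group (2 arrays) carried an shRNA against mouse Phf19, and the shVector group (2 arrays) carried the vector control. The labels call the 2 arrays of a group biological replicates, and no source used here gives the number of hairpins, infections or clones, so the p-values speak only to how much these arrays vary. Values are log2 expression of Affymetrix Mouse Genome 430 2.0 probe sets, and RNA from whole cultures cannot tell fewer cells of a type from less RNA per cell.

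Pluripotency is the capacity of a cell to form all lineages of the embryo. Oct4 (encoded by Pou5f1), Sox2 and Nanog bind together at enhancers of their own and each other's genes. In the naive state around them act Klf2, Klf4, Klf5, Esrrb, Tfcp2l1, Tbx3, Nr5a2 and Prdm14, several of which respond to the cytokine LIF through Stat3, while Fgf4 and the ERK kinases it activates favour exit from that state. F9 cells express much of this network in culture. Phf19 is a Polycomb-like partner of Polycomb repressive complex 2, which methylates histone H3 at lysine 27.

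The proximal promoters of the 3 core genes are shown, picked by name as the core of the network. They come from RefSeq windows of 300 bases (250 before to 50 after an annotated start) in build GRCm38.p6, which held 21 of the 33 measured genes. Capitals mark the Sox letters CATTGT, alone or joined with 1 base between to the Oct letters ATGC, and the GC box GGGCGG, to which Klf and Sp proteins bind, each read on both strands. Nanog is at chr6:122707239-122707538, Pou5f1 at chr17:35505782-35506081 and Sox2 at chr3:34649745-34650044, all on the + strand.
Nanog: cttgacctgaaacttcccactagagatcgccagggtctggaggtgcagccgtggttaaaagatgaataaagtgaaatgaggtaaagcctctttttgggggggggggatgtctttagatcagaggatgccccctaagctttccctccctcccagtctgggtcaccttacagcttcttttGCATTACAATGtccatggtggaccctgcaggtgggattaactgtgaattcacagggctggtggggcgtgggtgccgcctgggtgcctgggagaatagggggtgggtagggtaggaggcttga
Pou5f1: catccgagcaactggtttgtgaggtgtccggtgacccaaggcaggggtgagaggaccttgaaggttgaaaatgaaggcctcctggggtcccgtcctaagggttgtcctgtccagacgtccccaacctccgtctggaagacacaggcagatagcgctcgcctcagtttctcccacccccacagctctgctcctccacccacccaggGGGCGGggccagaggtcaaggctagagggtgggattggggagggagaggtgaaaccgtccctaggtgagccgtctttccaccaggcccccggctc
Sox2: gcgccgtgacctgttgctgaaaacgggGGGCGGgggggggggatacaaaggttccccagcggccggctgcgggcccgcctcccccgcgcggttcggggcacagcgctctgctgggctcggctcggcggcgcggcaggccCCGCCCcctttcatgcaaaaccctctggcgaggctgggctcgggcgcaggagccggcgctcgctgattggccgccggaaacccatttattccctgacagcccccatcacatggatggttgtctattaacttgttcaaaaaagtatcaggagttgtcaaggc

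The joined Sox and Oct letters stood in the Nanog window on the opposite strand, at bases -72 to -62 from this start and -148 to -138 from its other annotated start. They occurred in 20 of all 32851 promoter windows (0.0609%) and in no window of the other measured pluripotency genes. The Sox letters alone were found in 12.6% of all windows and, among these genes, in those of Nanog, Pou5f1 (at its second start), Esrrb, Lin28a and Eras. The GC box stood in 35.7% of all windows and in those of 14 of the measured genes, Sox2, Pou5f1, Klf2 and Klf4 among them. The ratio of observed to expected CpG, a measure of CpG islands, was 0.19 in the Nanog window shown and 0.37 in that of Pou5f1, against a median of 0.38 over all windows. It was 0.82 for Sox2, 0.89 for Klf2 and 0.97 for Klf4. These are descriptions of letters, and binding was not measured.

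The arrays were alike as a whole, with Pearson's r over probe sets of 0.9974 within shVector, 0.9984 within shPhf19 and 0.9961 to 0.997 between groups. Of the 2 Phf19 probe sets, 1427920_at was at 50.7% of shVector in shPhf19 (95% interval 43.2% to 59.4%; limma adjusted p = 0.0108), whereas 1431857_at was at 96.2% (adjusted p = 0.928), so the knockdown was seen by only 1 of them. Of the 11 markers listed for embryonal carcinoma, 9 were also among the pluripotency genes, so their levels are no separate check. The other 2 were Alpl (7.86 to 8.09) and Fut4 (5.01 to 5.33), which encodes an enzyme that can make the SSEA-1 epitope. All but Fut4, 10 of the 11, lay above the array median of 5.76. The mean log2 level of the 11 markers was 11.10 to 11.19 in shVector and 11.16 on both shPhf19 arrays. The mean of 15 endoderm markers was 6.15 to 6.21 in shVector and 6.64 in shPhf19, with a median change of 0.29 and the largest changes in Cubn (4.91-fold), Dab2 (2.64-fold), Gata6 (2.28-fold) and Pdgfra (2.26-fold). The mean of 8 fibroblast markers was 4.77 to 4.79 in shVector and 4.63 to 4.69 in shPhf19, and none of those 8 passed the test.

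The pluripotency network as a whole was close to level between the groups, with small differences in both directions. Of the 33 genes, 1 fell, none rose and 32 did not pass (limma, p-values adjusted by Benjamini-Hochberg over 45037 probe sets, threshold 0.05). That is 3.03% of the genes, near the 2.02% called among all genes, and 1.52% of their probe sets, near the 1.41% called among all probe sets. Their median log2 change was 0.00, as it was for all genes, but their median absolute change was larger, 0.14 against 0.09. Their changes ran from -0.42 to 0.46. The range over all genes was -2.30 to 2.42, but 33 genes are bound to span less than 18193. The 95% interval lay within 1.5-fold of no change for 31 of the 33 (93.9%, against 92.7% of all genes) and within 2-fold for all 33. Prdm14 and Dppa3 had the intervals that reached past 1.5-fold.

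**Figure D1:**
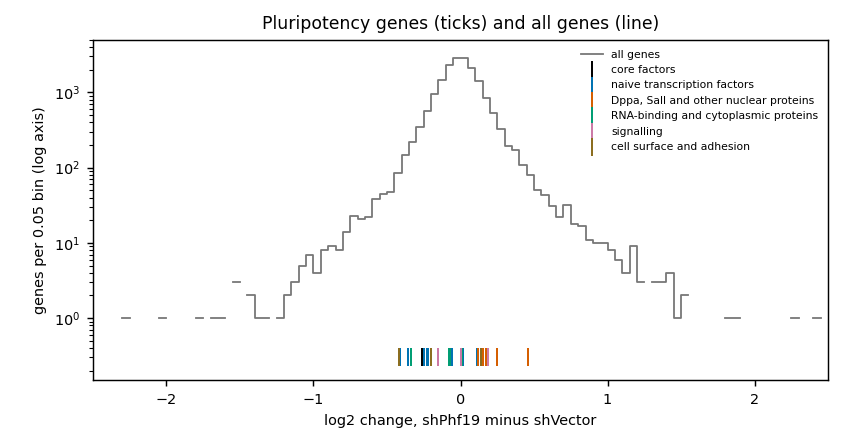
Distribution of the log2 change (shPhf19 minus shVector, x axis) over all genes, as genes per bin of 0.05 on a log axis (grey line), with each of the 33 pluripotency genes as a tick coloured by role. The ticks lie between -0.42 and 0.46, in the central part of a distribution that runs from -2.30 to 2.42.

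The genes that were apart between groups are counted here by their representative probe sets. For 12 genes both shPhf19 arrays were below both shVector arrays (36.4%, against 22.2% of all genes), for 8 both were above (24.2%, against 21.3%), and for 13 the groups overlapped. Before adjustment, 10 genes had p under 0.05 with a lower value in shPhf19 (30.3%, against 7.35% of all genes) and 5 with a higher one (15.2%, against 7.73%). The genes listed had both larger differences than the array at large (median absolute change 0.14 against 0.09) and smaller standard errors (median 0.06 against 0.09). The naive transcription factors held 5 of the 12 lower genes and none of the 8 higher ones. The Dppa, Sall and other nuclear proteins held 6 of the 8 higher genes and 1 of the lower ones. These are counts, and no test compared the roles.

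**Figure D2:**
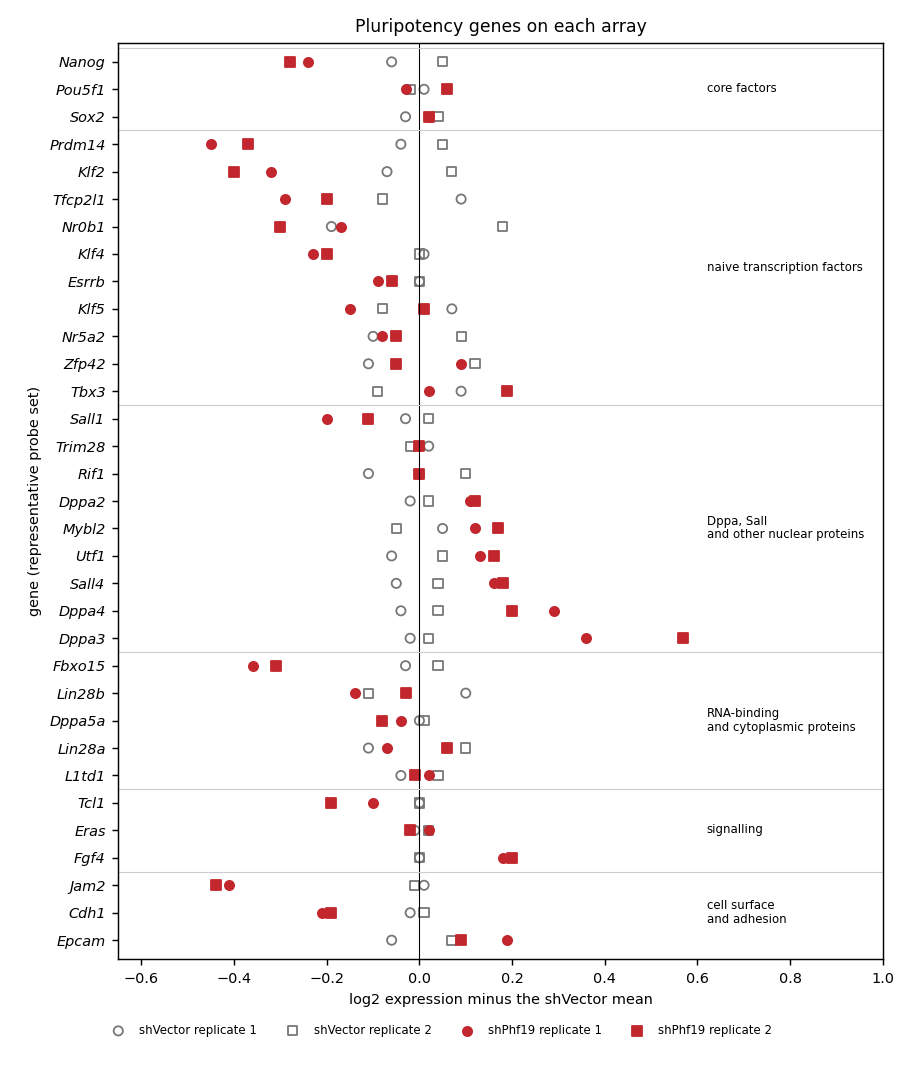
Log2 expression of each of the 33 pluripotency genes on each array, minus the gene's shVector mean (x axis), with open symbols for the 2 shVector arrays and filled red ones for the 2 shPhf19 arrays, grouped by role. The red symbols lie left of both grey ones for Nanog, Prdm14, Klf2, Klf4, Fbxo15 and Jam2 and right of them for Dppa3, Dppa4, Fgf4 and Sall4 (whose other probe set lies the opposite way), while those of Pou5f1 and Sox2 overlap them.

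The transcripts of Oct4 and Sox2 were level between the groups to within narrow intervals, and Nanog was slightly lower in shPhf19 without passing the test. Pou5f1, the gene of Oct4, stood at 13.82 and 13.79 on the shVector arrays and at 13.78 and 13.87 on the shPhf19 arrays. Sox2, its DNA-binding partner, was at 13.11 and 13.18 in shVector and at 13.16 and 13.16 in shPhf19. The values of both genes overlapped between the groups, and both changes were 0.02 ± 0.04 (SE) on the log2 scale with a 95% interval from -0.09 to 0.12 (limma adjusted p = 0.937 for Pou5f1 and 0.938 for Sox2).

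Nanog, a homeodomain factor that sustains self-renewal, was at 12.98 and 13.09 in shVector and at 12.80 and 12.76 in shPhf19. Both shPhf19 arrays were thus below both shVector arrays, by more than the gaps between replicates (0.11 and 0.04). The change was -0.26 ± 0.05 (SE; 95% interval -0.38 to -0.13), or 83.8% of the shVector level. It did not pass over all probe sets (limma adjusted p = 0.0923). Each core gene had 1 probe set.

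Among the 10 naive factors none passed, and 8 of the 10 changes were below 0 (median -0.15). The median of their values relative to the shVector mean was -0.16 and -0.13 on the shPhf19 arrays, against -0.02 and 0.02 on the shVector arrays. Prdm14, a PR-domain protein that represses FGF receptor and DNA methyltransferase genes in the naive state, was at 9.43 and 9.52 in shVector and at 9.02 and 9.10 in shPhf19. The groups did not overlap, and Prdm14 was at 75.3% of the shVector level (change -0.41 ± 0.08 SE; limma adjusted p = 0.0689).

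Klf2, a Krüppel-like factor that supports the naive state, was at 11.61 and 11.75 in shVector and at 11.36 and 11.28 in shPhf19. It was at 78.0% of shVector (-0.36 ± 0.07 SE; limma adjusted p = 0.0698), with no overlap. Klf4, its relative and one of the reprogramming factors, was at 12.18 and 12.17 in shVector and at 11.94 and 11.97 in shPhf19, also without overlap. Its change was -0.22 ± 0.05 (SE; adjusted p = 0.114), and its second probe set gave -0.23 with overlapping groups. Klf5, the third of these factors, overlapped between groups at -0.07 ± 0.07. Of its other 2 probe sets, 1451739_at stood at 0.19, with both shPhf19 arrays above both shVector arrays. The remaining one, at -0.13, was dim and overlapped. None of the Klf genes passed, and no test compared them with each other.

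Tfcp2l1, a naive factor induced by LIF, was at 11.75 and 11.58 in shVector and at 11.37 and 11.46 in shPhf19, without overlap (-0.25 ± 0.07 SE; limma adjusted p = 0.226). Its other 2 probe sets lay near the bottom of the scale, under 3.4 on every array, where a value may be background. Esrrb, an orphan nuclear receptor, was lower on both shPhf19 arrays by little (-0.07 ± 0.05, SE), and its other probe sets gave -0.09 and -0.19. The other naive factors, Nr0b1, Nr5a2, Zfp42 and Tbx3, overlapped between groups by their representative probe sets. Nr0b1, which encodes Dax1, was at -0.23 ± 0.12 (SE) with a gap of 0.37 between the shVector arrays, larger than its change. Nr5a2, a nuclear receptor that can activate Pou5f1, was at -0.06 ± 0.08, Zfp42, which encodes the marker Rex1, at 0.02 ± 0.08, and the T-box factor gene Tbx3 at 0.11 ± 0.09. Some further probe sets of Nr5a2 and Tbx3 were apart between groups, and none passed. Those of Nr5a2 were lower, at -0.09 (1420410_at) and -0.14 (1449706_s_at). Those of Tbx3 went both ways, at 0.11 (1448029_at) and, among dim ones, 0.31 (1439567_at) and -0.20 (1444594_at).

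**Figure D3:**
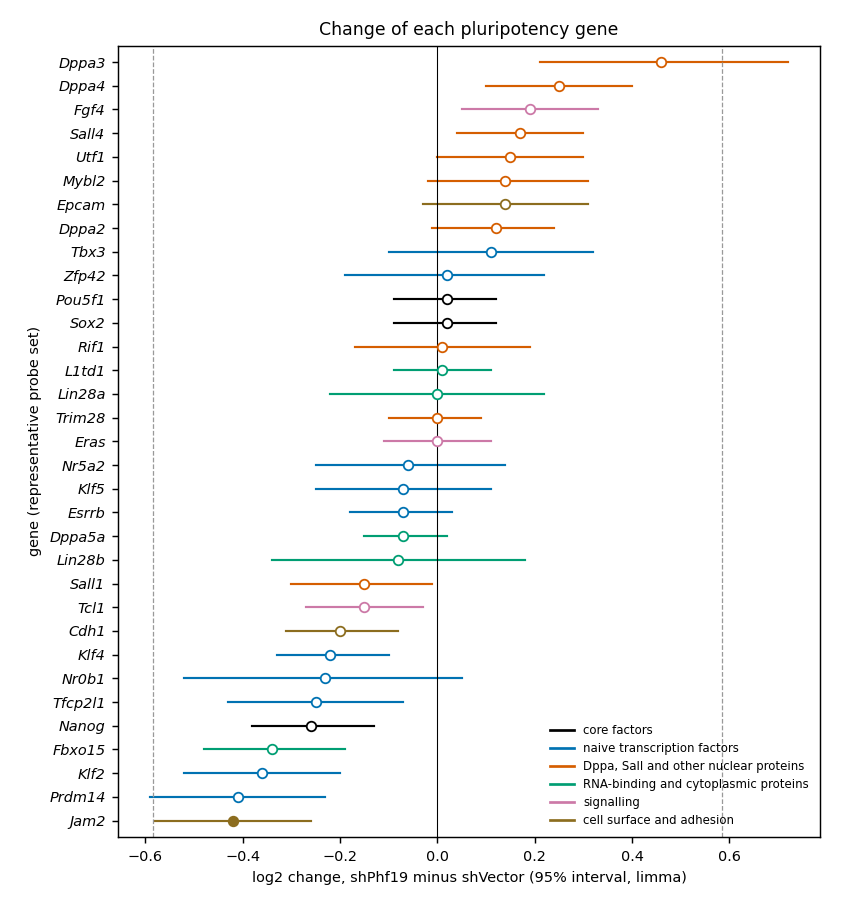
Log2 change of each pluripotency gene (shPhf19 minus shVector, x axis) with its 95% interval from limma, ordered by change and coloured by role; the filled point passed the adjusted threshold of 0.05, and dashed lines mark a 1.5-fold change either way. Jam2 at -0.42 is the filled point, Prdm14 and Dppa3 have intervals that cross a dashed line, and Pou5f1 and Sox2 sit at 0.02.

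Genes of the Dppa and Sall families and other nuclear proteins lay mostly above 0, and none of 9 passed (median 0.14). Dppa3, also called Stella, protects DNA methylation in the early embryo and marks germ cells. It was at 6.26 and 6.30 in shVector and at 6.64 and 6.85 in shPhf19, so the groups did not overlap, and the change was 0.46 ± 0.11 (SE), or 1.38-fold higher (limma adjusted p = 0.121). Dppa4, a nuclear protein that acts at bivalent promoters together with Dppa2, was at 11.11 and 11.19 in shVector and at 11.44 and 11.35 in shPhf19. Its change was 0.25 ± 0.06 (SE; adjusted p = 0.146), without overlap. Dppa2 itself was 1.08-fold higher by its representative probe set (0.12 ± 0.05) and at 0.02 by the other.

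Sall4, a zinc finger partner of Oct4, gave opposite answers by its 2 probe sets. The brighter, 1424152_at, was at 11.88 and 11.97 in shVector and at 12.09 and 12.11 in shPhf19 (0.17 ± 0.05 SE; limma adjusted p = 0.249). The dimmer was 1424153_s_at, whose suffix, also borne by the representative probe sets of Dppa2 and Rif1, marks probes shared with other transcripts. It was at 8.19 and 8.19 in shVector and at 7.82 and 8.02 in shPhf19 (-0.27 ± 0.10 SE; limma adjusted p = 0.316). The groups were apart in both, in opposite directions, so Sall4 has no settled direction, and its place among the higher genes in the counts by role rests on the brighter probe set alone. Sall1, its paralog, was at -0.15 ± 0.06 and -0.30 ± 0.14 by its 2 probe sets, neither of which passed.

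Utf1, a chromatin-bound protein of undifferentiated cells, was at 0.15 ± 0.06 (SE) and had all 3 probe sets above 0. Mybl2, the cell cycle factor B-Myb, was at 0.14 ± 0.07, and its second probe set was at 0.03. Rif1, a protein of replication timing, stood at 0.01 ± 0.07 with its other 3 probe sets from -0.11 to 0.25. The one at 0.25, 1429490_at, had both shPhf19 arrays above both shVector arrays. Trim28, the corepressor KAP1 of endogenous retroviruses, was at 0.00 ± 0.04 by its brighter probe set and -0.01 by the other. By the representative probe sets of these 4 genes, Utf1 and Mybl2 had both shPhf19 arrays above both shVector arrays, and none passed.

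Among RNA-binding and cytoplasmic proteins, Fbxo15 stood apart. It encodes an F-box protein and is a known Oct4 and Sox2 target. Fbxo15 was at 11.20 and 11.27 in shVector and at 10.87 and 10.92 in shPhf19, at 79.1% of the shVector level without overlap (-0.34 ± 0.06 SE; limma adjusted p = 0.0596). The RNA-binding genes stood closer to 0 by their representative probe sets. Lin28a, which blocks let-7 maturation, was at 0.00 ± 0.09. Its second, dimmer probe set was at -0.21, with both shPhf19 arrays below both shVector arrays, and did not pass. L1td1, a protein derived from a LINE-1 element, was at 0.01 ± 0.04, and Dppa5a, a KH-domain protein, at -0.07 ± 0.04. Lin28b was the only gene of the 33 whose level lay below the array median, at 2.96 to 3.20 on all arrays, a level that may be background.

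Of the signalling genes, Fgf4 was slightly higher and Tcl1 slightly lower. Fgf4, the growth factor that activates ERK in these cells and a classical target of Oct4 with Sox2, was at 10.37 and 10.37 in shVector and at 10.55 and 10.57 in shPhf19. All of its 4 probe sets were above 0, from 0.03 to 0.19, and none passed (representative 0.19 ± 0.06 SE; limma adjusted p = 0.24). Tcl1, a cofactor of the kinase Akt, was at 12.70 and 12.70 in shVector and at 12.60 and 12.51 in shPhf19 (-0.15 ± 0.05 SE; adjusted p = 0.278). Eras, a constitutively active Ras protein of embryonic stem cells, overlapped between groups at 0.00 ± 0.05.

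Jam2 was the 1 pluripotency marker that fell. It encodes a junctional adhesion molecule of the immunoglobulin family. By its brightest probe set, 1449408_at, Jam2 was at 9.74 and 9.72 in shVector and at 9.32 and 9.29 in shPhf19. The groups were far apart against gaps of 0.02 and 0.03 between replicates, and Jam2 fell to 74.6% of the shVector level, 1.34-fold (-0.42 ± 0.07 SE; 95% interval -0.58 to -0.26; limma adjusted p = 0.0439). All 5 Jam2 probe sets were below 0, from -0.44 to -0.31, with no overlap between the groups in any, though the other 4 did not pass (adjusted p = 0.101 to 0.298). Without 1 array the change was -0.44 to -0.41 and no such fit kept the call. Leaving out replicate 1 or 2 of shVector gave adjusted p = 0.155 or 0.189, and leaving out replicate 1 or 2 of shPhf19 gave 0.827 or 0.739.

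The other surface genes did not pass. Cdh1, the gene of E-cadherin, was at 12.03 and 12.06 in shVector and at 11.84 and 11.86 in shPhf19, without overlap, at 87.2% of the shVector level (-0.20 ± 0.05 SE; limma adjusted p = 0.148). Epcam, an epithelial adhesion protein, was at 0.14 ± 0.07 and had both probe sets above 0.

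Of the 17 genes with several probe sets, 10 had all of them on 1 side of 0 and 7 had them on both sides. Jam2, Klf4, Esrrb, Fgf4 and Utf1 were among the 10. Klf5, Tbx3, Nr5a2, Rif1, Sall4, Lin28a and Tfcp2l1 were the 7, and the probe sets of Nr5a2, Tfcp2l1 and Tbx3 that differed in sign from the representative one were dim, reaching at most 4.53, 3.15 and 5.44. The remaining 16 genes, Pou5f1, Sox2, Nanog, Prdm14, Klf2 and Fbxo15 among them, rested on a single probe set.

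**Figure D4:**
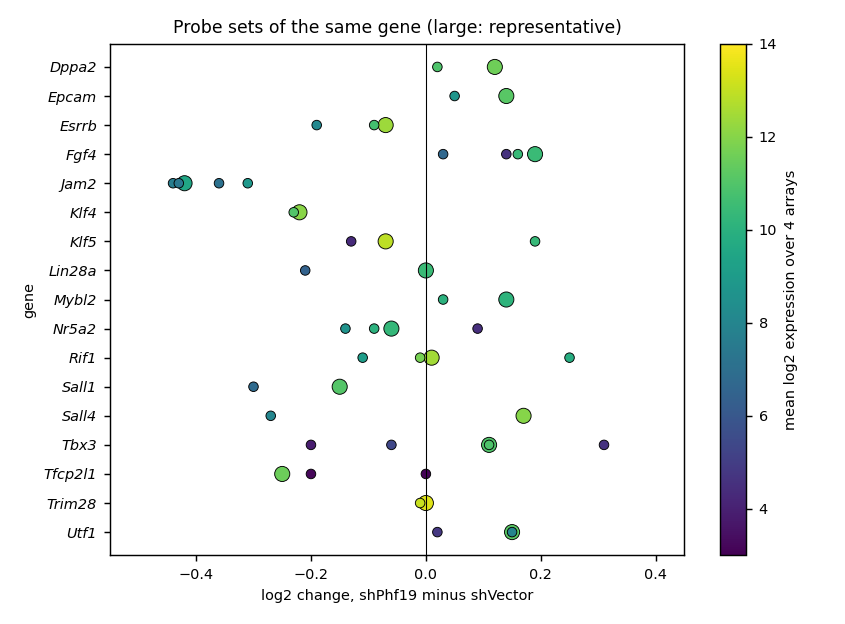
Log2 change (shPhf19 minus shVector, x axis) of every probe set of the 17 pluripotency genes with several, coloured by mean log2 expression over the 4 arrays; the large symbol is the representative probe set. All 5 Jam2 symbols lie between -0.44 and -0.31, while the 2 of Sall4 lie at -0.27 and 0.17.

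Genes of the signals around the network were read in the same fit, from lists written down with earlier results of these data known. Of 11 genes of LIF and Stat3 signalling none passed (median change -0.10). For 7 of the 11 both shPhf19 arrays were below both shVector arrays, against 22.2% of all genes. Stat3, the transcription factor that LIF activates, was at 9.72 and 9.66 in shVector and at 9.29 and 9.38 in shPhf19 (-0.36 ± 0.07 SE; limma adjusted p = 0.0889). Il6st, the receptor subunit gp130, averaged 10.31 in shVector and 9.98 in shPhf19, without overlap (-0.32 ± 0.06 SE; adjusted p = 0.0861). The other receptor subunit, Lifr, overlapped between the groups at 0.11 ± 0.11.

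Of 14 genes of FGF and ERK signalling, 2 rose, none fell and 12 did not pass (median change 0.21), where 2.02% of all genes were called in either direction. Both that rose encode phosphatases that ERK induces and that in turn dampen it. Dusp4 was at 7.09 and 7.04 in shVector and at 8.03 and 7.81 in shPhf19, a rise of 1.81-fold (0.86 ± 0.10 SE; limma adjusted p = 0.018). Dusp6 was at 11.34 and 11.56 in shVector and at 12.07 and 11.98 in shPhf19, a rise of 1.49-fold (0.57 ± 0.08 SE; adjusted p = 0.0321). For 10 of the 14 genes both shPhf19 arrays were above both shVector arrays, against 21.3% of all genes. Egr1, an immediate early target of ERK, was the only one with both below (-0.62 ± 0.21, SE), and it did not pass.

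Of 22 other regulators of embryonic stem cells, Stat3 again included, none passed (median 0.04). The smallest p after that of Stat3 was that of Kdm4c, a histone demethylase (0.27 ± 0.08 SE; limma adjusted p = 0.24). Tdgf1, the Nodal co-receptor Cripto, was at 0.00 ± 0.04.

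Of 14 genes of the formative and primed epiblast, the stages that follow the naive state, 4 rose, 1 fell and 9 did not pass (median 0.23), against the same 2.02% called among all genes. Otx2, a homeodomain factor of that transition, was at 5.54 and 5.46 in shVector and at 7.19 and 6.62 in shPhf19 (limma adjusted p = 0.0245). Pou3f1, the Oct6 gene, rose 1.57-fold, from 9.35 and 9.33 to 10.03 and 9.96 (adjusted p = 0.014), and its second probe set was at 0.45 without passing. Lef1 and Dnmt3b rose by 1.51 and 0.28 on the log2 scale. Zic2 fell by 1.03. Lef1 had a second probe set at 0.26 ± 0.18 and Dnmt3b one at 0.34 ± 0.06, neither of which passed. Fgf5, the usual marker of the primed stage, was at -0.07 ± 0.10 and at a level under the array median. The calls in these lists, of the lineage markers and of Phf19 were made with all 4 arrays. No call was kept without any 1 of them (shVector replicate 1 or 2, shPhf19 replicate 1 or 2). Such a fit leaves a lone array in 1 group, so a lost call does not show that it rested on the array left out.

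**Figure D5:**
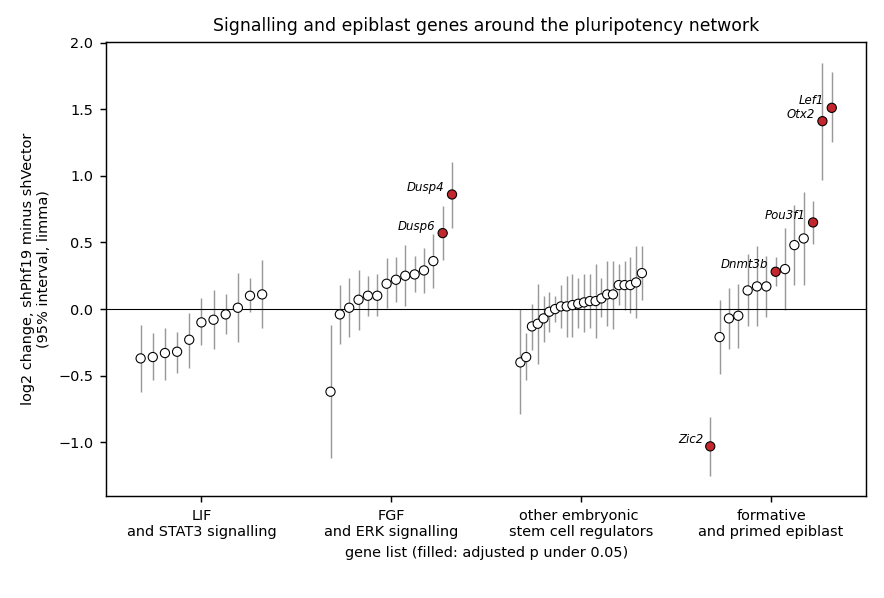
Log2 change (shPhf19 minus shVector, y axis) with 95% intervals from limma for the genes of 4 lists around the pluripotency network, ordered by change within each list; filled points passed the adjusted threshold of 0.05. Dusp4 and Dusp6 are filled among the FGF and ERK genes, Lef1, Otx2, Pou3f1, Dnmt3b and Zic2 among the epiblast genes, and none among the LIF and Stat3 genes or the other regulators.

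Markers of other lineages were read beside these values, and their part in the small differences of the pluripotency genes was not tested. Of 15 markers of primitive, visceral and parietal endoderm, 4 rose (Cubn, Dab2, Gata6 and Pdgfra), none fell and 11 did not pass, against 2.02% called among all genes. Among all 15, 9 had both shPhf19 arrays above both shVector arrays (21.3% of all genes did), and 3 had both below (22.2% of all genes). Of the 11, Gata4, Sox17, Foxa2, Amn and Lama1 were among the 9, and Sox7, Afp and Sparc were the 3. Ttr and Hnf4a were at 0.00 and 0.02, and Thbd overlapped between groups. A second Cubn probe set rose as well (1.34). None of the additional probe sets for Pdgfra (0.13 and 0.46), Dab2 (0.09 to 0.44) or Gata6 (0.00 and 0.08) passed the test. Of 7 neuroectoderm markers 2 rose (Sox1 and Neurod1) and 1 fell (Tubb3), with a median change of -0.12. Pax6 (-1.12 ± 0.22 SE; limma adjusted p = 0.0805) and Map2 (-0.47 ± 0.11 SE) were lower without overlap but did not pass. Of 10 trophoblast markers 1 fell (Tfap2c). The second Sox1 probe set was at -0.15 and did not pass. None of 7 mesoderm markers passed.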

How the data were processed

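RNA of the 4 cultures was hybridised to Affymetrix Mouse Genome 430 2.0 arrays. The authors deposited 1 log2 value per probe set and array; the log2 scale was read from the deposited values (2.31 to 14.5 without control probe sets), and the sources used here do not give how probe sets were summarised and normalized. Array medians were 5.75 to 5.76, and no detection calls were used, so low values may be background and large changes may be compressed.

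Of 45101 probe sets, 64 controls were left out and 45037 tested with limma 3.58.1 in R 4.3.3 (lmFit, eBayes with an intensity trend), two-sided, with Benjamini-Hochberg adjustment and a threshold of 0.05. Platform annotation gave 34945 probe sets a single gene, 932 several and 9160 none; the 33 member symbols agreed by gene number with RefSeq (GRCm38.p6). A gene stands for its probe set with the highest mean. Percentages are 2 to the power of the change. SE are limma's. With 2 arrays a group, an exact permutation test of 1 gene cannot go below 0.333, so none was run. The code was tested on simulated data.

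Per-array values are given for Pou5f1, Nanog, Sox2, every member that passed and the members with the smallest p, up to 12 beside the core; of the other lists, up to 4 members that passed per direction, or the 2 with the smallest p, are named, some without per-array values. Members and lists were chosen with earlier results of these data known. Genes outside this rule were named after their values were seen. Same-numbered arrays deviated from their group means with a correlation of -0.197, so the replicate number was not a term. Alternatives were quantile normalization, median centring, leaving out the 25% or 50% dimmest probe sets, no trend, a robust prior, replicate blocks, the mean of probe sets, and each array left out.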

Additional observations from a re-analysis of the deposited data

How the results depend on the processing

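Calls depended on the arrays and the model. Without any 1 array 0 probe sets passed in limma, against 636 in the complete data, and 2539 to 6942 had an unadjusted p under 0.05; the counts of pluripotency probe sets and genes that passed, 1 each in the complete data, were then 0, with 12 to 21 probe sets and 8 to 15 genes at an unadjusted p under 0.05. Each such fit leaves a lone array that is assumed to vary like the other group. With a replicate block 0 probe sets passed (3890 at an unadjusted p under 0.05), 0 of the pluripotency probe sets and 0 of the genes (12 and 9 at an unadjusted p under 0.05), and Jam2 stood at adjusted p = 0.386; nothing in the labels says that the numbers pair the arrays. A block of crossed numbers, added after seeing the data, gave 596 probe sets, with 2 pluripotency probe sets and 2 genes. Without a variance trend 380 passed in all, and 0 pluripotency probe sets and 0 genes did (17 and 11 at an unadjusted p under 0.05), Jam2 being at adjusted p = 0.0965. The count of pluripotency probe sets and of genes was 3 and 3 with quantile normalization, 2 and 2 without the lowest 25% of probe sets, 4 and 4 without the lowest 50%, and 4 genes with the mean of probe sets. All pluripotency genes that passed under any of these were lower in shPhf19. Fbxo15 passed under 4 of 13 alternatives, Klf2 under 4 and Prdm14 under 2, while Jam2 lost its call under 6. The median change of the 33 genes was -0.07 to 0.00 without 1 array and -0.05 with the mean of probe sets.

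Of the 15 pluripotency genes given with per-array values, 12 kept their direction under all 13 alternatives. The 12 beside the core were chosen by a call or the smallest p, and they and Nanog did not overlap between groups. Leaving out 1 array could not turn such a direction, so those fits are no check of it. Of all 33 genes, 18 were below 0 in the complete data and 16 to 20 without 1 array. Pou5f1 turned from 0.02 to -0.02 without shPhf19 replicate 2, with a range of -0.02 to 0.06 over the arrays left out. Sox2 turned to -0.02 without shVector replicate 1 (range -0.02 to 0.05). Sall4 turned to -0.05 with the mean of its probe sets, which disagree. Nanog ran from -0.31 to -0.20, with adjusted p from 0.0545 to 0.864. The number of arrays limits the precision, and a low signal limits what Lin28b can show.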
